A study of Mus musculus with 6 samples.

Results

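A set of 8 genes of red cell formation was followed in the parietal bone of newborn mice. These were *Alas2*, *Slc4a1*, *Epb42*, *Sptb*, *Klf1*, *Ahsp*, *Gata1* and *Ermap*, chosen because erythroid genes had been seen to be lower in the *Stat3*-deleted libraries of these same data, so the genotype difference of each gene is given below as a description and not as a test. Of the 8 genes, 7 had a row among the 44556 genes of the deposited count tables. *Epb42* was listed under its older symbol *Epb4.2*, and *Ahsp*, which encodes the chaperone of free alpha globin, was not analysed here. The question the comparison addresses is what happens to these genes in bone when *Stat3*, a transcription factor activated by cytokine receptors, is deleted in cells that will become osteoblasts.

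Groups of C57BL/6 newborn littermates were compared, with 3 libraries each. Mice of the OsxCre group carry Cre recombinase under the Osterix (*Osx*) promoter, which is active mainly in osteoblast precursors, and their label names no floxed *Stat3*. Mice labelled OsxCre;Stat3fl/fl carry the same Cre and both *Stat3* alleles flanked by loxP sites, so that Cre itself is shared by both groups and the deletion is directed to bone-forming cells, not to red cell precursors. Libraries of polyadenylated RNA were made from whole pieces of bone with an Illumina TruSeq kit, and the methods give 3 mice of each genotype for the 3 libraries, without tying a library to a mouse.

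Red cell precursors switch on a small set of genes under GATA1 and KLF1, which bind GATA and CACCC motifs. Their products make heme, build the spectrin-based membrane skeleton and anchor it to the anion exchanger band 3, while globin messenger RNA comes to make up most of what a late precursor holds. At birth the bone marrow is taking over red cell production from the liver, and reticulocytes in blood still carry globin and *Alas2* messenger RNA. Skull bone holds both marrow spaces and blood vessels.

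The DNA just upstream of a RefSeq start of 4 of the genes is shown because it carries the motifs by which erythroid genes are grouped. Sequences of 150 bases ending at the base before the start were taken from RefSeq (GRCm38.p6), 5′ to 3′ on the strand of the gene, and capitals mark CACCC and GATA motifs on either strand. A GATA motif was taken as AGATAA with a first letter of A or T and a last letter of A or G. The stretch of *Alas2* is chrX:150547267-150547416 on the plus strand, that of *Klf1* is chr8:84901832-84901981 on the plus strand, that of *Ermap* is chr4:119189996-119190145 on the minus strand and that of *Gata1* is chrX:7967911-7968060 on the minus strand. The *Gata1* stretch lies inside the span of the gene, 7959260 to 7976663. The start used for *Gata1* is thus an internal one and not the outermost 5′ end.
*Alas2*: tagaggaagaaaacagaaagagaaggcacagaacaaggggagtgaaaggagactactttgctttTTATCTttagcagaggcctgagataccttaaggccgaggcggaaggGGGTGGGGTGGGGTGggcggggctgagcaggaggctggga
*Klf1*: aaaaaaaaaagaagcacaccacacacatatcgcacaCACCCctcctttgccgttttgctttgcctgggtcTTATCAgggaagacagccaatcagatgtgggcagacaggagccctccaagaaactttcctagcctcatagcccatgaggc
*Ermap*: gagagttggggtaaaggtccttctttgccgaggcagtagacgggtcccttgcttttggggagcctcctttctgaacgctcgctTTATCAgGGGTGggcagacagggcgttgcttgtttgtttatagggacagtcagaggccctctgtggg
*Gata1*: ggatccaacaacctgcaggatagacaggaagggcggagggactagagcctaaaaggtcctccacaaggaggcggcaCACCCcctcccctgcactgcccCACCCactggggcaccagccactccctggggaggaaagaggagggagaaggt
Around the start, from 250 bases before to 50 bases after, a GATA motif was found in 5 of the 6 genes with a RefSeq window (83.3%), against 33.0% of 27025 genes with a window and 55.3% of the other 47 erythroid genes examined here. In *Alas2* it lay 86 to 81 bases before the start, followed by 3 adjoining CACCC motifs on the minus strand from 40 to 26 bases before it. *Klf1* had its GATA motif 80 to 75 bases before the start, *Ermap* 67 to 62 bases before, *Epb42* 226 to 221 bases before, and *Sptb* 13 to 18 bases after it. *Gata1* had 2 CACCC motifs and no GATA motif in the window around its internal start, and the DNA around its outermost 5′ end was not examined. CACCC was present in 5 of the 6 genes, against 59.8% of all windows and 85.1% of the other 47 erythroid genes. All 5 relatives of these genes from other tissues that had a window held it too, so CACCC did not set the genes apart. A motif of CTG, 8 or 9 free bases and GATAA, which overlaps the GATA motif, was present in *Epb42*, *Klf1* and *Ermap*. Its share was 1.73% of all windows and 14.9% of the other 47 erythroid genes. The STAT motif TTCNNNGAA was found in 0 of the 6 windows, against 9.55% of all and 6.38% of the other 47 erythroid genes. TATAAA was found in 3 of the 6, against 15.7% of all and 8.51% of the other 47. All 3 lay on the strand opposite to the gene. They were 209 to 204 bases before the start in *Alas2*, 126 to 121 in *Epb42* and 31 to 26 in *Ermap*. These matches describe the letters in these windows and no binding was measured.

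The 6 libraries held between 8193651 and 12080044 counts on genes, so that 3 counts, taken as the smallest amount a library can show, equalled between 0.248 and 0.366 CPM on the library totals. CPM, counts per 1000000 counts of a library, are elsewhere scaled by edgeR's TMM factors. *Stat3* itself was between 134 and 149 CPM in OsxCre and between 152 and 155 CPM in the other group, so its total count did not check the deletion, and the libraries are named by their labels throughout. The study describes the newborns as male. *Xist*, the RNA that coats the silenced X chromosome in females, was counted at between 878 and 1060 CPM in every library. *Alas2* and *Gata1* lie on the X chromosome. The labelled tissue held its defining transcripts, with *Col1a1* between 9875 and 15110 CPM.

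*Alas2*, the erythroid enzyme of the first step of heme synthesis (chromosome X, 150547417 to 150570622, GRCm38.p6), was the best counted of the 7 genes. It had 183, 175 and 246 CPM in OsxCre libraries 1, 2 and 3 and 149, 187 and 97.3 CPM in libraries 1, 2 and 3 labelled OsxCre;Stat3fl/fl. The genotypes overlapped, because labelled library 2 lay above OsxCre libraries 1 and 2. The means were 201 ± 38.7 and 144.5 ± 45.2 CPM (SD, n = 3 each), and the log2 fold change between genotypes was -0.48 (standard error 0.23). *Alas2* was below 0 on this scale in each of 16 alternative analyses, from -0.88 without scaling for library size to -0.09 without library 3 of both genotypes. Without the labelled library 3 alone the value was -0.26, and without OsxCre library 3 alone it was -0.31.

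*Slc4a1* encodes band 3, the anion exchanger of the red cell membrane to which the membrane skeleton is anchored (chromosome 11, 102348820 to 102365281, 1.41 Mb from *Stat3*). It had 17.65, 12.3 and 37.4 CPM in the OsxCre libraries and 9.82, 10.9 and 21.5 CPM in the labelled libraries. Library 3 was the highest of both groups, and the labelled library 3 lay above 2 of the 3 OsxCre libraries. The means were 22.4 ± 13.2 and 14.05 ± 6.44 CPM (SD, n = 3 each), and the log2 fold change was -0.68 (standard error 0.45). Without OsxCre library 3 the value was -0.09, and without the labelled library 3 it was -1.12, so 1 library moved it by more than 1.5 times in either direction.

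*Sptb*, which encodes beta spectrin of the red cell skeleton and is also used in muscle and brain (chromosome 12, 76580488 to 76710547), had similar means in both genotypes. It had 77.8, 85.5 and 105 CPM in the OsxCre libraries and 79.3, 91.45 and 75.2 CPM in the labelled libraries. The means were 89.4 ± 13.9 and 82.0 ± 8.44 CPM (SD, n = 3 each), the log2 fold change was -0.13 (standard error 0.13), and without OsxCre library 3 it was 0.005.

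*Ermap*, which encodes an erythroid membrane protein of the butyrophilin-like family that carries the Scianna blood group (chromosome 4, 119175457 to 119190013), showed the widest spread among the 4 genes that passed the filter on low counts. It had 4.84, 1.78 and 8.87 CPM in the OsxCre libraries and 2.28, 2.81 and 8.86 CPM in the labelled libraries, so that both groups covered nearly the same range. The means were 5.16 ± 3.56 and 4.65 ± 3.66 CPM (SD, n = 3 each). The log2 fold change of -0.16 (standard error 0.65) turned to 0.49 without OsxCre library 3, to 0.17 without labelled library 1 and to 0.11 without labelled library 2, and was -1.03 without labelled library 3.

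The remaining 3 genes were near the lowest level that the depth can show, and in some libraries at or below it. They did not pass the filter, and have values from a fit without it. *Epb42*, which encodes protein 4.2, a link between band 3 and the skeleton (chromosome 2, 121017891 to 121036877), had 13, 6 and 19 counts in the OsxCre libraries and 2, 4 and 7 in the labelled libraries. In CPM these were 1.23, 0.593 and 1.59 against 0.2395, 0.489 and 0.816, so the genotypes overlapped only through OsxCre library 2 and labelled library 3. The log2 fold change was -1.14 (standard error 0.55). It rests in part on labelled library 1, whose 2 counts lay below the 3 counts taken as the smallest amount.

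*Klf1* encodes the erythroid Krüppel-like factor that activates globin, heme and membrane genes (chromosome 8, 84901982 to 84905291). It had 10, 6 and 27 counts in the OsxCre libraries and 6, 3 and 13 in the labelled libraries, or 0.949, 0.593 and 2.26 against 0.719, 0.367 and 1.52 CPM. The groups overlapped, and library 3 was the highest in both. The log2 fold change was -0.57 (standard error 0.57), with labelled library 2 at the smallest amount of 3 counts.

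*Gata1*, the master transcription factor of erythroid and megakaryocyte cells (chromosome X, 7959260 to 7976663), went the other way from the rest in its means. It had 5, 8 and 16 counts in the OsxCre libraries and 6, 5 and 28 in the labelled libraries. In CPM these were 0.4745, 0.791 and 1.34 against 0.719, 0.611 and 3.27. The labelled mean was 1.76 times the OsxCre mean, with 28 of its counts in library 3, whereas the labelled libraries 1 and 2 lay within the OsxCre range. The log2 fold change was 0.79 (standard error 0.59).

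**Figure D1:**
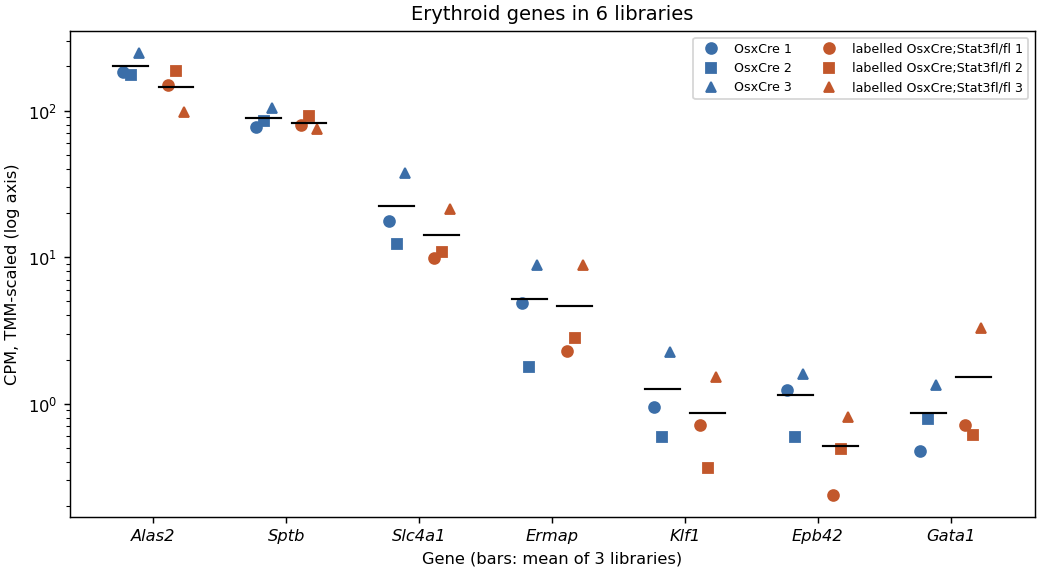
Level of each of the 7 erythroid genes in each library, in CPM on a log axis, with OsxCre in blue, libraries labelled OsxCre;Stat3fl/fl in orange and a bar for the mean of 3 libraries. For every gene the 2 genotypes overlap, and the OsxCre library 3 (blue triangle) is the highest of its group, at 246 CPM for *Alas2* and 2.26 CPM for *Klf1*.

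Across the genes, 0 of the 4 that passed the filter were called lower or higher at an adjusted p under 0.05 by edgeR's quasi-likelihood test, against 1.26% of 15600 genes, 0.481% called lower and 0.776% called higher. At an unadjusted p under 0.05 the count was 0 with edgeR's main settings, where 8.34% of all genes were lower and 8.03% higher. It was 0 with limma-voom and 1 with DESeq2. Over all alternatives it was between 0 and 3, the highest without scaling for library size, and all of these were lower. The share of all genes at this threshold is given for the main settings only, so nothing is read from the counts in other settings. With raw counts and no scaling for library size, 2 were called lower at the adjusted threshold, as were 5451 of the 15600 genes tested. That setting moved the median of all genes to -0.38. In 0 of the 7 genes did the 3 labelled libraries all lie below the 3 OsxCre libraries, against 12.2% of the genes tested, and in 0 did they all lie above, against 10.8%. The log2 fold change was below 0 in all 4 genes that passed the filter and in 50.7% of all genes. The median log2 fold change of the 4 genes was -0.32, against -0.004 for all genes, and nothing is read from either, since the genes were picked on this difference. In bulk bone, fewer erythroid cells and less RNA per cell cannot be told apart.

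Levels can be set side by side between genes only per length of exon. In CPM per kilobase of exon, *Alas2* was between 40.5 and 102 over the 6 libraries and stood apart from the rest. *Sptb*, between 6.19 and 8.63, and *Slc4a1*, between 2.01 and 7.65, overlapped each other and lay below *Alas2*. *Ermap* (0.336 to 1.67), *Klf1* (0.239 to 1.47) and *Gata1* (0.195 to 1.34) could not be put in order beyond their spread. *Epb42*, between 0.0442 and 0.294, overlapped the lower ends of *Klf1* and *Gata1*, and its lowest value rests on 2 counts. The RNAs of the transcription factors and of protein 4.2 were thus measured at a small fraction of the level of *Alas2* on this scale.

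The spread between libraries of one genotype was larger for these genes than for the typical gene. The coefficient of variation was 59.0% in OsxCre and 45.8% in the labelled libraries for *Slc4a1*, 68.9% and 78.7% for *Ermap*, and 19.2% and 31.3% for *Alas2*, against medians of 10.3% and 12.1% over all genes tested. Only *Sptb*, at 15.6% and 10.3%, was near those medians. Counting error alone, at the mean count of each gene, would give 7.35% for *Slc4a1*, 14.3% for *Ermap*, 2.42% for *Alas2* and 3.47% for *Sptb*. For *Epb42*, *Klf1* and *Gata1* it would give 34.3%, 30.4% and 29.7%, so part of their spread of 44.4% to 98.1% is counting error.

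The genes fell into 2 patterns within the genotypes, a grouping made after the values were seen. All 7 genes were highest in library 3 of the OsxCre group, where 35.3% of all genes tested had their highest value in that group. In the labelled group *Slc4a1*, *Epb42*, *Klf1*, *Gata1* and *Ermap* were again highest in library 3 (29.6% of all genes), whereas *Alas2* and *Sptb* were lowest there and highest in library 2. After the genotype means were taken out of log2(CPM + 1), the 10 pairs among the first 5 genes had Pearson correlations between 0.59 and 0.97 over the 6 libraries. *Alas2* correlated with those 5 genes between -0.61 and -0.04 and with *Sptb* at 0.81. *Sptb* itself correlated with the 5 genes between -0.06 and 0.34, so it was less set apart from them than *Alas2*. These values are descriptions over 6 libraries that leave 4 degrees of freedom, and all genes of a library share its depth and its piece of tissue.

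**Figure D2:**
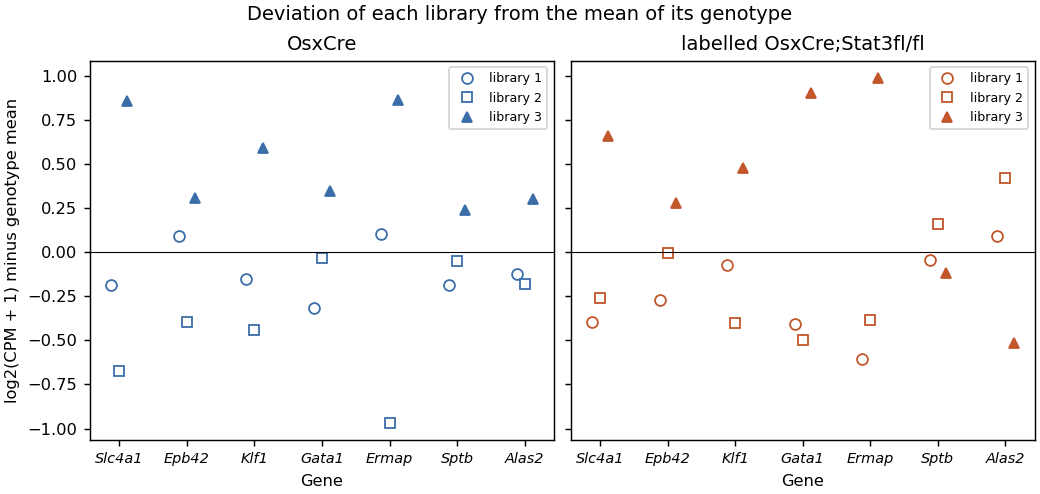
Deviation of each library from the mean of its genotype, in log2(CPM + 1), for OsxCre (left) and libraries labelled OsxCre;Stat3fl/fl (right), with library 3 as filled triangles. Library 3 lies above 0 for all 7 genes on the left, and on the right it lies above 0 for *Slc4a1*, *Epb42*, *Klf1*, *Gata1* and *Ermap* and below 0 for *Sptb* (-0.12) and *Alas2* (-0.52).

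The proportion of *Alas2* to globin RNA varied less between libraries than that of 5 other genes. Per 1000 counts on globin genes, *Alas2* had 22.4, 25 and 27.0 counts in the OsxCre libraries and 28.8, 29.5 and 28.0 in the labelled libraries, which all lay above OsxCre, while the globin counts themselves ranged from 29767 to 108702. The summed counts of *Slc4a1*, *Epb42*, *Klf1*, *Gata1* and *Ermap* were 3.07, 2.28 and 5.66 per 1000 globin counts in OsxCre and 2.67, 2.38 and 10.3 in the labelled libraries. Library 3 of the labelled group thus had the fewest globin counts of all and the most of these 5 genes in proportion to them. The ratio of *Slc4a1* to *Alas2* counts showed the same split, at 0.0965, 0.0699 and 0.152 in OsxCre and 0.066, 0.0581 and 0.221 in the labelled libraries. These ratios were chosen after the values were seen.

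**Figure D3:**
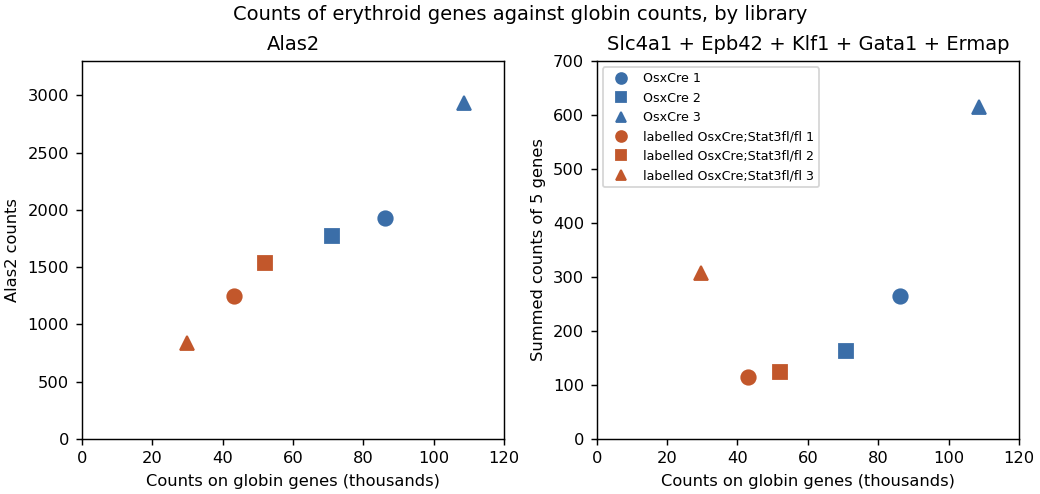
Counts of *Alas2* (left) and summed counts of *Slc4a1*, *Epb42*, *Klf1*, *Gata1* and *Ermap* (right) against the counts on globin genes (axis in units of 1000 counts), with 1 point per library. The *Alas2* points follow the order of the globin counts, from 834 to 2938, whereas the 5 genes have 308 counts in labelled library 3 (orange triangle), which has the fewest globin counts, and 115 in labelled library 1.

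The globins are the main product of the pathway. *Hba-a1*, an adult alpha globin, had 3336, 2034 and 3474 CPM in the OsxCre libraries and 1640, 1874 and 1047 CPM in the labelled libraries, which all lay lower. Its log2 fold change was -0.96 (standard error 0.27, edgeR adjusted p = 0.139). *Hbb-bs*, an adult beta globin, likewise had no overlap, with 3719, 3534 and 4244 against 2549, 3071 and 1656 CPM (log2 fold change -0.66, standard error 0.22, edgeR adjusted p = 0.187). *Hbb-bt* (-0.56) overlapped between genotypes, as did *Hba-a2* (0.004), whose reads are hard to tell from those of its near-identical copy *Hba-a1*. Of the 4 globins tested, 0 passed the adjusted test with edgeR, 1 did with DESeq2 and 1 with edgeR without the filter. At an unadjusted p under 0.05 with edgeR, 3 were lower, against 8.34% of all genes. Erythroid genes were already known to be lower in these data, so these globin values are a description and not a test. The embryonic globins *Hba-x*, *Hbb-bh1* and *Hbb-y* were at or near 0 in every library, and *Hbb-b1* and *Hbb-b2* at 0. All 4 globins tested were highest in library 2 and lowest in library 3 of the labelled group, as *Alas2* was.

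Other genes of heme and iron handling were close to *Alas2* in role. Of 16 such genes, all tested, 0 passed the adjusted test with edgeR in either direction, 5 were lower and 0 higher at an unadjusted p under 0.05 (8.34% and 8.03% of all genes), and the median log2 fold change was -0.16. *Steap3*, a ferrireductase of endosomes, had 45.5, 37.0 and 43.9 CPM in OsxCre and 26.6, 33.3 and 31.6 CPM in the labelled libraries, with an adjusted p = 0.119 from edgeR's test. *Abcb10*, a mitochondrial transporter of erythroid cells, had 26.3, 31.9 and 31.1 against 23.4, 21.9 and 23.3 CPM (adjusted p = 0.14 from edgeR's test). *Tfrc*, the transferrin receptor through which precursors take up iron, had 146, 152 and 212 against 122, 139 and 118 CPM (adjusted p = 0.205 from edgeR's test). *Fech*, the enzyme of the last step of heme synthesis, overlapped between the genotypes, as *Alas2* did, with a log2 fold change of -0.20.

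Of 14 other genes of the erythroid membrane, the partners of *Slc4a1*, *Sptb* and *Epb42*, 11 were tested and 0 passed the adjusted test with edgeR, with 1 lower and 0 higher at an unadjusted p under 0.05 (8.34% and 8.03% of all genes) and a median log2 fold change of -0.13. *Tmod1*, which caps actin filaments in red cells and muscle, had a log2 fold change of -0.13, *Epb41*, protein 4.1 of the skeleton, 0.06 and *Mpp1*, its membrane partner, 0.19.

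Of 11 partners of *Gata1* and *Klf1* in transcription, 9 were tested and 0 passed the adjusted test with edgeR, with 1 lower and 0 higher at an unadjusted p under 0.05 (8.34% and 8.03% of all genes) and a median log2 fold change of -0.05. *Lyl1*, a helix-loop-helix factor of blood cells, had 21.8, 16.9 and 20.3 CPM in OsxCre and 13.3, 12.4 and 15.9 CPM in the labelled libraries without overlap (adjusted p = 0.153 from edgeR's test). *Nfe2*, a leucine zipper factor of erythroid cells and platelets, overlapped (-0.67, standard error 0.30). *Ldb1* and *Zbtb7a*, used widely outside the lineage, had log2 fold changes of 0.10 and 0.07.

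Among 14 further erythroid genes, 10 were tested and 1 was called lower. *Tent5c*, listed as *Fam46c*, a poly(A) polymerase found in erythroid and plasma cells, fell from 34.6, 32.1 and 43.9 CPM in OsxCre to 17.6, 19.9 and 18.5 CPM in the labelled libraries (log2 fold change -0.98, standard error 0.14, adjusted p = 0.0213 from edgeR's test). When each library was left out in turn its adjusted p ranged from 0.031 to 0.121, and the call was lost without OsxCre library 1 and without each of the 3 labelled libraries. Over all alternatives the range was 9.31e-06 to 0.199. *Bpgm*, the mutase that sets the red cell level of 2,3-bisphosphoglycerate, had no overlap and an adjusted p = 0.11 from edgeR's test (log2 fold change -0.43), and *Prdx2* and *Bnip3l*, the 2 of highest level, had -0.09 and -0.15. The erythroid genes chosen here, the globins and these 4 lists were all put together with earlier results of these data known.

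The nearest relatives of the genes in other tissues had log2 fold changes above 0 with TMM scaling. All 6 tested relatives did so, with a median of 0.23 (-0.13 without scaling for library size), 0 called by the adjusted edgeR test and 3 higher at an unadjusted p under 0.05 (8.03% of all genes). The relative of *Alas2* that serves all tissues, *Alas1*, had a log2 fold change of 0.21, and the ratio of *Alas2* to *Alas1* counts was 3.49, 3.13 and 2.94 in OsxCre and 2.79, 2.03 and 1.25 in the labelled libraries. This ratio was lower in every labelled library than in every OsxCre library, and was set up after the values were seen. The ratio of *Slc4a1* to *Slc4a2*, the widely used anion exchanger, overlapped, at 0.155, 0.13 and 0.379 against 0.0771, 0.111 and 0.211. The ratio of *Gata1* to *Gata2*, the factor of earlier progenitors and mast cells, was 0.0213, 0.0266 and 0.0699 against 0.0296, 0.0214 and 0.104. *Sptbn1*, *Tgm2* and *Klf3* had log2 fold changes of 0.22, 0.32 and 0.71, and *Btn1a1* was at or near 0.

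**Figure D4:**
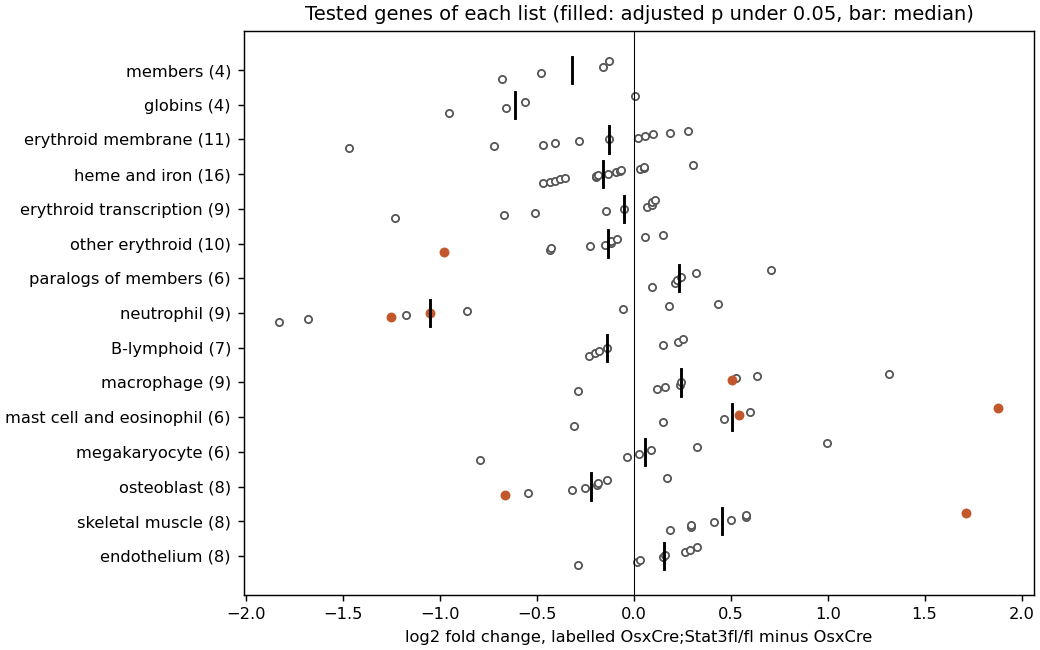
Log2 fold change of every tested gene in each list, labelled OsxCre;Stat3fl/fl minus OsxCre, with the number tested in parentheses, a bar for the median and filled points for an adjusted p under 0.05 by edgeR. The 4 tested genes of the first row lie between -0.68 and -0.13 with no filled point, and the erythroid lists hold 1 filled point in all, *Tent5c*.

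Transcripts of other cells in the bone moved between libraries beside these genes. The 10 neutrophil genes, summed, were at 289, 315 and 493 CPM in the OsxCre libraries and 158, 126 and 209 CPM in the labelled libraries, so that they too were highest in library 3 of both groups. In single genes, 8 of the 10 were highest in OsxCre library 3 (35.3% of all genes) and 9 of the 10 in labelled library 3 (29.6% of all genes). *S100a9* and *Mmp8* were called lower (log2 fold changes of -1.25 and -1.05, adjusted p = 0.0423 and 0.0456 from edgeR's test), calls that were lost whichever of the 6 libraries was left out. The list was not uniform. Of its 9 tested genes 7 had log2 fold changes below 0 and 2 above, *Mpo* at 0.18 and *Prtn3* at 0.44. *S100a9* and *S100a8*, at means of 161 and 97.0 CPM in OsxCre, had the largest part in the sum. Of 9 B-lymphoid genes with at least 30 counts, 7 were highest in OsxCre library 3 and 6 in labelled library 3, against the same shares. Skeletal muscle genes summed to 26100, 25200 and 28900 CPM in OsxCre and 34500, 43200 and 29500 CPM in the labelled libraries, and all 8 were highest in labelled library 2 (36.6% of all genes), the library in which *Alas2* and *Sptb* were highest in that group. *Myh3*, an embryonic myosin, rose from 344, 297 and 381 CPM to 997, 1551 and 808 CPM (log2 fold change 1.72, edgeR adjusted p = 0.0204), a call kept in 2 of the 6 fits that left out a library. Its call was lost without OsxCre library 1 or 2 or labelled library 1 or 3, with adjusted p-values between 0.0132 and 0.0967 over the 6 fits and between 8.39e-16 and 0.129 over all alternatives. The part of these cell types in the values of the erythroid genes was not tested.

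The genes with the pattern most like that of the 7, by the Pearson correlation over 6 libraries of their deviation from the genotype means with the mean standardised deviation of the 7 genes, were *Fam180a* (0.998), *Ndufaf1* (0.996), *2700089E24Rik*, *Bmp2k* and *Mettl15* (0.994 each). None of these 5 stands in an erythroid list, and 377 of 15596 genes had a correlation over 0.9. Among listed genes the likeness was 0.977 for *Tspo2*, a heme and iron gene, and 0.971 for *Trim10*, one of the further erythroid genes. The median was 0.63 for the membrane list, 0.48 for heme and iron, 0.54 for transcription, 0.78 for the further erythroid genes, 0.05 for the globins and -0.002 for all genes. Lists of other cells reached medians as high, at 0.74 for neutrophil genes, 0.74 for endothelium, 0.64 for mast cells and eosinophils and 0.58 for B-lymphoid genes, with 0.31 for osteoblast, 0.08 for skeletal muscle, -0.12 for megakaryocyte and -0.14 for macrophage genes. The globins thus stood apart from the mean pattern of these genes, as *Alas2* did, over these 6 libraries.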

How the data were processed

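Bulk RNA-seq was carried out on 3 OsxCre and 3 OsxCre;Stat3fl/fl libraries of newborn parietal bone, grouped by their labels. The authors deposited whole-number counts per gene symbol for each library, without normalization. The submitters' processing notes name HISAT2 and GRCm38, whereas the paper's methods describe TopHat and mm9, and the counting program and strand setting are not given in the sources used here. Genes were matched by symbol or RefSeq synonym.

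The packages edgeR 4.0.16, DESeq2 1.42.0 and limma 3.58.1 were run under R 4.3.3. Low genes were removed by filterByExpr (minimum count 10, minimum total 15), which left 15600 of 44556 genes, and genotypes were compared by the two-sided quasi-likelihood test with TMM scaling and Benjamini-Hochberg adjustment over all genes tested (adjusted p under 0.05). The study's own comparison used Cuffdiff on FPKM values, which were not used here. CPM per kilobase used exon lengths of the mm9 gene annotation, and log2(CPM + 1) was used for likeness. Depth was between 8193651 and 12080044 counts, and intervals or floors of 3 counts cover counting error only. No 2 libraries of the same genotype were duplicates, and pairs across genotypes were not checked.

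The genes, lists and relatives were chosen with earlier results of these data known. The genes named were all 8 of the set, the globins, the relatives, in each erythroid list the genes called, the 2 of smallest p and the 2 of highest level, and the called genes of other cell types. Of the genes named for their level in lists of other cell types, only *Col1a1* is given, and some genes that the rule names are not reported here. *Tspo2* and *Trim10*, and the ratios and the grouping within genotypes, were chosen after values were seen. Alternatives were other scalings, filters and tools, the replicate number as a block, and leaving out libraries. Same-numbered libraries of the 2 genotypes had deviations that correlated at -0.101, -0.528 and -0.0686. Differently numbered libraries were not compared in this way, so these values do not settle whether the numbers pair the libraries. Figures were drawn in matplotlib 3.10.9, and tables were handled in pandas 2.3.3 under Python 3.11.15.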

Additional observations from a re-analysis of the deposited data

How the results depend on the processing

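Of the genes tested, 75 were lower and 121 higher at an adjusted p under 0.05, of which 0 belonged to the erythroid set. The lower count was 114 with library totals, 5451 without scaling, 178 without a filter and 231 with DESeq2, and the higher count was 250 without a filter and 307 with DESeq2. With the replicate number as a block, 1 gene was lower and 0 were higher. Leaving out each library in turn gave 5 to 36 lower and 7 to 67 higher, and leaving out library 3 of both genotypes, an analysis chosen after seeing the data, gave 4 and 2. The number of the set called lower was 0 in every alternative but the raw counts without scaling, where it was 2 and the median log2 fold change of the set was -0.72, with -0.38 for all genes. That median was between -0.64 and -0.04 when each library was left out. The number of the set without overlap between genotypes, 0 with TMM, was 1 with library totals (*Alas2*) and 2 without scaling (*Alas2* and *Sptb*). The share of all genes without overlap is given for TMM only, at 12.2% lower and 10.8% higher. The counts with library totals and without scaling thus have no share beside them, and nothing is read from them. *Ermap* was above 0 in 3 of 16 alternatives and *Sptb* in 2. *Epb42*, *Klf1* and *Gata1* were limited by their depth of 2 to 28 counts per library.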

Other observations

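The lists of mast cell and macrophage genes had median log2 fold changes above 0, 0.50 and 0.24, although that of the macrophage genes was -0.14 without scaling for library size. Of 6 tested mast cell and eosinophil genes, 2 were called higher in the libraries labelled OsxCre;Stat3fl/fl. *Hdc*, the enzyme that makes histamine, rose from 12.2, 13.1 and 19.1 CPM to 48.0, 62.4 and 53.3 CPM (log2 fold change 1.88, adjusted p = 0.00785 from edgeR's test), a call that was lost without labelled library 3 (0.0677) and in the fit blocked by replicate number (0.0586), with alternatives between 3.84e-18 and 0.0677. *Tpsb2*, a mast cell tryptase, differed by 0.54 on the log2 scale (edgeR adjusted p = 0.0423), and its call was lost in 5 of the 6 fits that left out a library. Of 9 tested macrophage genes, 1 was called higher, the complement gene *C1qb* (0.50, adjusted p = 0.0253 from edgeR's test), a call that was lost in all 6 such fits. Of 6 tested megakaryocyte genes, the lineage that shares *Gata1* with red cells, 0 were called by edgeR's adjusted test and 2 were higher at an unadjusted p under 0.05 (8.03% of all genes). Their log2 fold changes ran from -0.79 to 1.00 with a median of 0.06, which was -0.02 without labelled library 1 and -0.31 without scaling. *Pf4*, the best counted of them, was at 74.2, 73.1 and 85.7 CPM in OsxCre and 90.5, 98.1 and 103 CPM in the labelled libraries. Of 8 osteoblast genes 1 was called, *Ibsp*, a bone matrix protein, which fell from 1014, 1058 and 930 CPM to 609, 662 and 625 CPM (log2 fold change -0.66, edgeR adjusted p = 0.0213). Its call was lost without OsxCre library 1 or 2 or labelled library 1 or 3, with adjusted p-values between 0.0399 and 0.105 over the 6 fits that left out a library and between 1.36e-11 and 0.209 over all alternatives. The part of these cells in the values of the erythroid genes was not tested.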
